A study of Mus musculus with 9 samples.

Results

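The postnatal comparison of Glis3 mutant with wild-type (WT) mice consisted of 2 Agilent 2-colour arrays, out of 9 arrays in the series, which together form one dye-swapped pair. Both arrays were chosen by their labels as the only ones from postnatal day 3 (PND3). Total RNA of 2 Glis3zf/zf pups made up the mutant pool and total RNA of 2 WT pups the WT pool. All pups were of the C57BL/6 strain, and the labels give pancreas as the tissue of both pools. Array 1 carried mutant RNA in the dye Cy3 and WT RNA in Cy5, and array 2 carried the same pools with the dyes exchanged. There was thus 1 pool per genotype. Agreement between the arrays measures labelling and hybridisation error only, it says nothing of the spread between pups, and no p-value is given. What the zf allele removes from the gene, and the sex of the pups, are not stated in the labels. The other 7 arrays of the series, from embryonic day 15.5, were not analysed here.

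Glis3 is a Krüppel-like zinc finger transcription factor related to the GLI proteins that act at the end of the Hedgehog pathway. It is best known for its part in the development of pancreatic beta cells and in insulin gene transcription, and it is also expressed in kidney, where loss of its function leads to cystic disease. The 60-base probe for Glis3 on these arrays is printed here because it reads the targeted gene.

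Glis3: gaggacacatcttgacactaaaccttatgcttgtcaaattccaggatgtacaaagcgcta

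The Glis3 probe gave scanner processed signals of 3.88 on array 1 and 3.39 on array 2 in the mutant pool, against 22.1 and 21.5 in the WT pool. The processed signal is the scanner software's background-subtracted, dye-normalised brightness, and one probe's signal does not measure another probe's amount. By the scanner's own flag for spots well above background, the WT pool was detected on both arrays and the mutant pool on neither. Glis3 was therefore at least 1.16-fold lower in the mutant pool, computed against the dimmest level at which any probe was still detected. The log2 ratio of mutant over WT was -0.32 on array 1 and -0.31 on array 2. An offset added to each intensity before the log drew these ratios of dim signals toward 0. The labels do not place this probe relative to the mutation, so its signal does not check the genotype.

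The tissue of both pools was read from channel levels before any ratio. Genes of kidney tubules and glomeruli were bright in both pools, and genes that define pancreas were dim. All 28 proximal tubule genes on the array were detected in both pools on both arrays, with median signals of 11094 (mutant) and 9998 (WT). Over all 28777 genes with a signal the medians were 139.9 and 142.2, and 69.9% of genes were well above background in both pools. Fbp1, a gluconeogenic enzyme of the proximal tubule, gave 115369 (mutant) and 105057 (WT). Slc22a6, a transporter of organic anions, gave 33555 and 33006, and the endocytic receptor Lrp2 gave 37840 and 41915. The 17 thick limb and distal tubule genes, the 20 collecting duct genes and the 17 podocyte and glomerulus genes on the array were likewise all well above background in both pools. Median signals of these lists in the dimmer pool were 8145, 2594 and 3722.5. Of 22 genes of nephron progenitors and ureteric tips, 21 were well above background in both pools, among them Cited1 at 1509 and 1353 and Wnt4 at 3085 and 2880. The receptor tyrosine kinase Ret, which marks ureteric tips, was dim at 8.3 and 7.1.

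Against that, the 8 islet hormone genes had medians of 35.8 (mutant) and 36.5 (WT), and 5 of them were well above background in both pools. Among the dimmer ones, the glucagon gene Gcg gave 7.82 and 10.01, Ins1 gave 12.3 and 10.7, and Ppy gave 9.4 and 11.3. The brightest reached 214.8 in the dimmer pool, and 2 of the 8 lay above the median of all genes there. The 22 digestive enzyme genes on the array had medians of 69.5 and 76.4, and 19 of them (86.4%) were well above background in both pools, a larger share than that of all genes. Of the 22, 6 lay above the median of all genes in the dimmer pool. Among the dimmer ones, Pnlip, the pancreatic lipase, gave 22.1 and 25.2, and Cela2a, an elastase, gave 3.9 and 3.1. The tissue kallikrein Klk1, which kidney tubules also express, was the only one of the 22 above 1000 in both pools. None of the 7 Reg genes, which acinar cells are known to express, was well above background in both pools. Hormones, enzymes and Reg genes, 36 without Klk1, had a median of 36.3 in the dimmer pool. None was above 1000, the highest reached 640.5, and 23 were well above background in both pools. The 82 nephron and collecting duct genes had a median of 3770.4, with 66 above 1000. The defining markers of the labelled tissue were thus dim, though many were detected, and the ratios reported here are those of these pools.

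**Figure D1:**
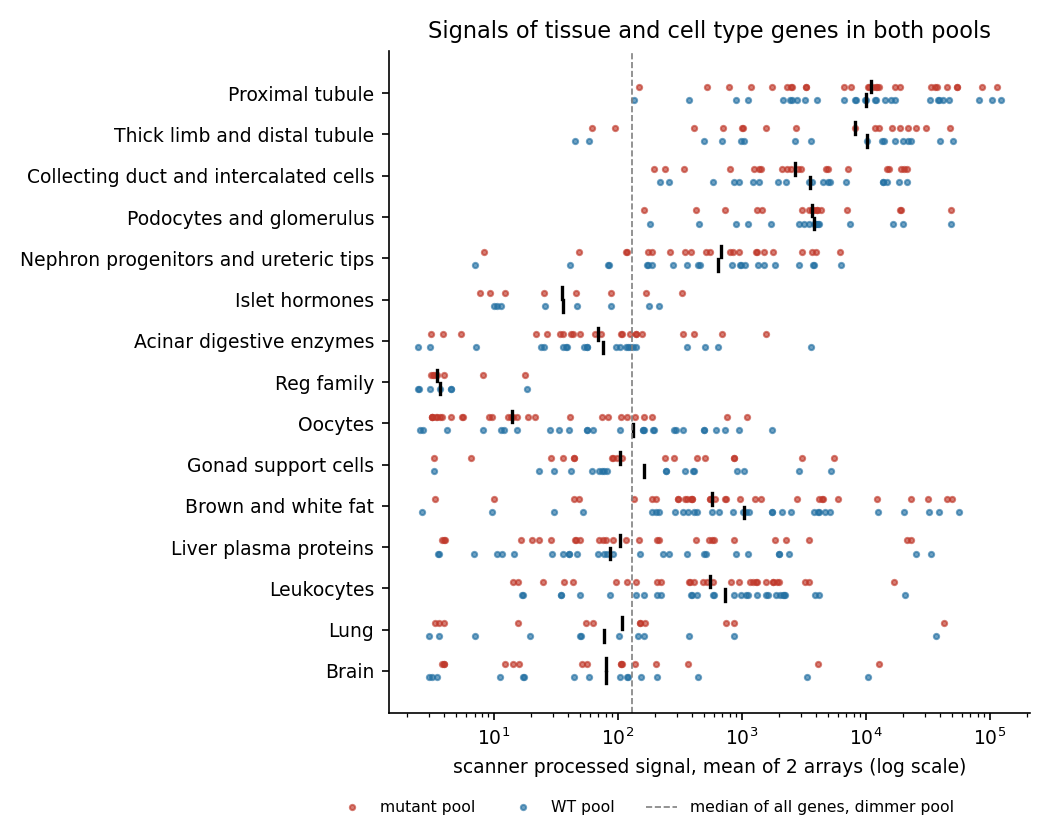
Scanner processed signal (log scale, mean of 2 arrays) of the genes of 15 lists in the mutant pool (red) and the WT pool (blue). Each point is a gene, black bars are list medians, and the dashed line is the median of all genes in the dimmer pool (130.9). Medians of the nephron and collecting duct lists lie to the right of that line in both pools and those of islet hormones, digestive enzymes and Reg genes to its left.

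Signals of the Hox genes, which mark position along the body axis, were also alike in both pools. Genes of paralog groups 2 to 11 were all well above background in both pools. Group 7 had a median of 9302 in the dimmer pool, with Hoxb7 at 11766 (mutant) and 11268 (WT). Group 11 had a median of 2275, and Hoxa11 gave 4110.4 and 4064. In group 13 the median was 11.4, and 1 of 4 genes was well above background in both pools. Of 33 Hox genes measured, 14 were higher and 9 lower in the mutant pool on both arrays, with a median log2 ratio of 0.00, and with median centring 10 were higher and 21 lower. Of all measured genes 30.9% were higher and 37.9% lower on both arrays, a background for the counts of direction.

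A gene was measured where at least 1 of its probes was well above background in at least 1 pool on both arrays. Its ratio was read from the brightest such probe, and it was called where that was 2-fold or more apart in the same direction on both. Of 20923 genes measured, 40 were called, or 0.191%. The mutant pool was higher for 7 (0.0335%) and lower for 33 (0.158%). The 2 arrays differed by a median of 0.11 log2 units per gene and by less than 0.32 for 95% of genes. Among the called genes the median difference was 0.08 and the largest 0.23. Both pools were detected on both arrays for 34 of the 40. With a 1.5-fold threshold 184 genes (0.879%) were called, 53 higher (0.253%) and 131 lower (0.626%). Most of the profile was shared, since 98.02% of genes had a mean ratio under 0.5 log2 units in size. Ratios close to 0 depended on the scaling. Median centring of each array in place of loess moved the median of all genes from -0.01 to -0.11, and moved bright lists further.

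**Figure D2:**
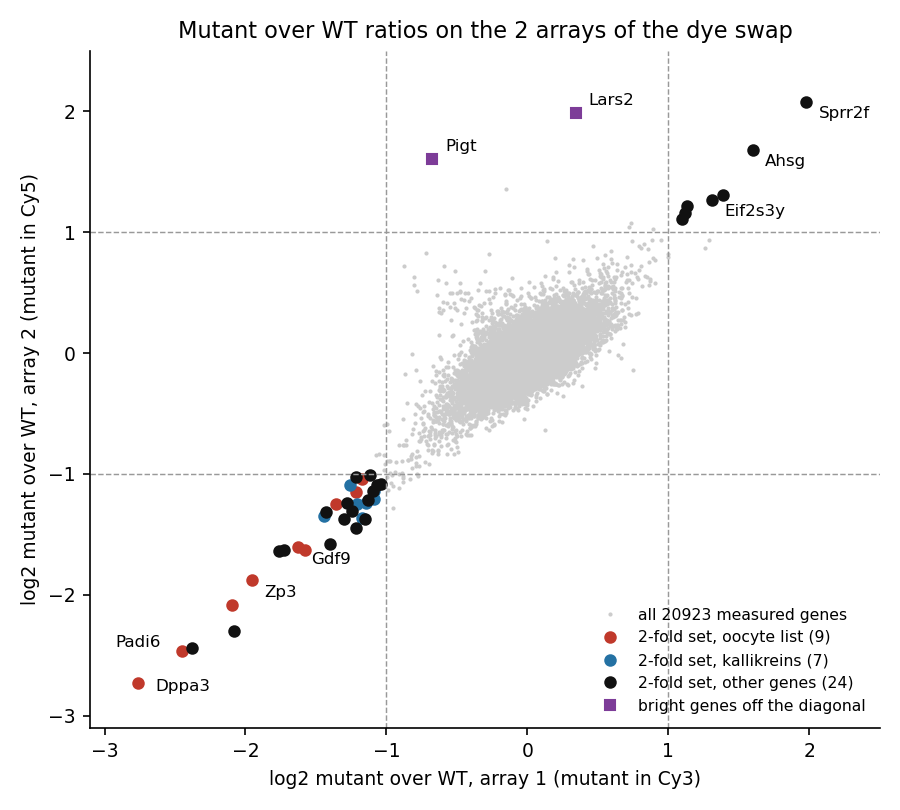
Log2 ratio of mutant over WT on array 1 (horizontal axis) and array 2 (vertical axis) for 20923 genes, with dashed lines at the 2-fold threshold. Called genes lie along the diagonal in the lower left and upper right corners, where 9 oocyte genes (red) and 7 kallikrein genes (blue, V00829 included) are all at the lower left. Pigt and Lars2 (purple) lie far from the diagonal.

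Genes of Glis3's own family and of the Hedgehog pathway differed little as a list under loess. In that pathway secreted ligands release Smo from the receptor Ptch1 and so activate GLI factors. Of 18 genes of the list measured, Glis3 among them, 10 were higher and 7 lower in the mutant pool on both arrays. The median was 0.05 and none was called. With median centring 8 were higher and 9 lower, and with the scanner's processed signals 1 was called lower. Among the ligands Ihh stood at 0.33 and Shh at 0.06, and among receptors and co-receptors Ptch1 stood at 0.10 and Boc at 0.41. Gas1, a co-receptor, was the lowest at -0.61. Glis2, a relative known from kidney, gave 26682 (mutant) and 32340 (WT), a log2 ratio of -0.27, and Gli1, a target of the pathway, stood at 0.21. Many pancreatic factors were dim, but not all. In the dimmer pool 2 of 18 endocrine factors exceeded 1000, the brightest at 10134, and 2 of 8 acinar factors, the brightest at 2924. Of 18 endocrine transcription factors 11 were measured, with a median of 0.00, and Pdx1 gave 28.6 and 23.9 in the mutant and WT pools. Nr5a2, an acinar factor that other tissues also express, had ratios of -0.999 and -0.585.

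The largest group of called genes belonged to the oocyte, the female germ cell, whose primordial follicles form around birth. The probes of Padi6 and Zp3 are shown because Padi6 had the lowest ratio among called genes detected in both pools on both arrays, and because Zp3 was read by a pair of overlapping probes. Capitals mark the 30 bases that both Zp3 probes hold.

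Padi6: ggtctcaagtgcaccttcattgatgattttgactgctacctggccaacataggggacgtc
Zp3 probe 1: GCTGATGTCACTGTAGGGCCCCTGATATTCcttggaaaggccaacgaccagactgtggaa
Zp3 probe 2: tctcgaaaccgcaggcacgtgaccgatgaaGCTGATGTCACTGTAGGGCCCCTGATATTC

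Padi6, a component of the oocyte's cytoplasmic lattices, gave 69.2 and 79.3 in the mutant pool on arrays 1 and 2, against 753 and 719 in the WT pool. The log2 ratios were -2.45 and -2.46, or 5.49-fold lower in the mutant pool. The offset added to each intensity before the log draws ratios of dim signals toward 0, and the scanner's processed signals gave -3.31 for Padi6, -5.10 for Dppa3, -3.03 for Zp3 and -1.94 for Gdf9. Zp3, a glycoprotein of the zona pellucida that coats the egg, gave 39.3 and 43.2 against 341 and 331. Its log2 ratio was -1.92 by probe 1 and -1.95 by probe 2. Dppa3, a maternal factor that protects the early embryo's methylation, gave 13.99 and 14.7 against 516 and 470.4. Its mutant signal was well above background on only 1 array, so its log2 ratio of -2.74 rests on a mutant signal near background. The growth factor Gdf9, secreted by oocytes, gave 168 and 156 against 652 and 592, with a log2 ratio of -1.61. These 4 genes were all called, so a gap between mutant and WT on each array was required by the 2-fold rule.

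Of 28 oocyte genes on the array 21 were measured, and all 21 were lower in the mutant pool on both arrays. This held under each scaling tried (loess, median centring and scanner processed signals). The oocyte list was chosen with earlier results of these data known, so its counts and median are a description. Of the 21, 9 were called lower and none higher, with a list median of -0.94 against -0.01 for all genes. With the scanner's processed signals 15 were called lower with a median of -3.03, and with a smaller offset 14 with a median of -1.67. At 1.5-fold 15 were lower. Of the 21, 12 were detected in both pools on both arrays. The filter admitted the others through the WT pool, so for them a lower value in the mutant pool was built in. Of those 12, 5 were called lower and all 12 were lower on both arrays.

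By role, all 13 genes of the oocyte cytoplasm and its maternal products were lower. For those that passed the filter through the WT pool alone, Nlrp14 among them, the lower value was built in. Khdc3, a member of the subcortical maternal complex, gave 19.9 and 22.8 against 175 and 144. Ooep, from the same complex, gave 200 and 182 against 531 and 455, with log2 ratios of -1.17 and -1.04. Tle6, also a member, was the brightest of the list at 1164 and 1046 against 1794 and 1725, and its log2 ratio was -0.65. Nlrp14 was detected on neither array in the mutant pool and was at least 3.03-fold lower. For Nlrp14 and Nobox this bound equals the fitted fold, because the mutant's fitted level lay above the detection floor. The 3 transcription factors measured, all regulators of oocyte genes, passed the filter through the WT pool alone. Their lower values in the mutant pool were thus built in. Nobox was at least 2.27-fold lower, with 10.6 and 8.97 in the mutant pool against 113 and 95.1. Lhx8 was at least 1.79-fold lower, with WT signals of 61.7 and 52.2, and Figla at least 1.46-fold, with WT signals of 46.9 and 34.3. The scanner detected none of the 3 in mutant RNA. Kit, the stem cell factor receptor that other cells also carry, stood at -0.31.

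Promoters of the called oocyte genes were searched for the E-box that Figla-type factors are known to bind, in RefSeq sequence (GRCm38.p6). Of the 9 genes, 5 had an entry in the promoter table. Within 250 bases before the start, CACCTG or its reverse complement CAGGTG was present in 4 of the 5 (Khdc3, Nobox, Padi6 and Zp3). It was present in 17.2% of the 32851 promoter entries searched, which leave out a chromosome and entries of another length. The oocyte genes counted a single promoter each, while this background counted every entry searched, so the rates were not computed alike. The looser form CANNTG, which contains the first, was present in 5 of 5 and in 66.2% of promoters. One match each is shown for Zp3 and Padi6, 60 bases on the strand of the gene with the match in capitals. In Zp3 it begins 55 bases before the start and in Padi6 78 bases before it. These matches describe sequence and show no binding.

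Zp3, chr5:135980023-135980082, plus strand: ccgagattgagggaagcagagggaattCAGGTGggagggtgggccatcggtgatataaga
Padi6, chr4:140742689-140742748, minus strand: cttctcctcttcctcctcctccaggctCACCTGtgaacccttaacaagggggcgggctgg

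Supporting cells of the gonad showed no such shift as a list. Of 17 genes measured, 7 were lower and 6 higher in the mutant pool on both arrays, with a median of 0.01, or -0.10 with median centring. Amhr2, the receptor for anti-Müllerian hormone, was called lower, with 92.6 and 88.5 in the mutant pool against 355 and 339. The guanine nucleotide binding protein gene Gng13 stood at -0.50. Foxl2, which marks granulosa cells, stood at 0.10 and Amh, made by Sertoli cells, at -0.05, or 0.07 with median centring. In pools of whole tissue, fewer cells of a type and less RNA per cell cannot be told apart. Meiotic genes formed no list here. Smc1b and Mael were picked after their low values were seen and do not stand for the class. Smc1b, a cohesin subunit of meiosis, gave 52.2 and 57.7 in the mutant pool against 188 and 149, with log2 ratios of -1.08 and -0.84. Mael, which guards germ cells against transposons, was at least 1.66-fold lower. It was not detected in mutant RNA, so its lower value was built into the filter.

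Of 5 Y-linked genes measured, 3 were higher in the mutant pool on both arrays and 1 was called. Eif2s3y, a Y-linked translation factor gene, gave 385 and 355 in the mutant pool against 111 and 109 in the WT pool, with log2 ratios of 1.31 and 1.27. Ddx3y, a Y-linked helicase gene, gave 208 and 201 against 72.9 and 72.5, with ratios of 0.89 and 0.93, and Kdm5d gave 55.6 and 48.3 against 21.5 and 23.1. Zfy1 was lower at -0.07, and Zfy2 differed in sign between arrays. Xist, the RNA of the inactive X chromosome, gave 11057 and 10616 against 11446 and 10018, so it was bright and alike in both pools. The part of the pups' sex or of ovary content in these ratios was not tested.

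The other large group was the tissue kallikreins, secreted serine proteases encoded by a tight cluster of near-identical genes, whose founding member Klk1 releases kinins in kidney and salivary gland. Their probes share sequence. Among 66 pairs of kallikrein probes, 5 had 40 or more of their 60 bases in common and 61 fewer, with a median of 21. The probes of Klk1, Klk1b4 and V00829, a sequence record that the array annotation describes as a kallikrein gene, are shown because all 3 were called and hold the same run of 24 bases, in capitals.

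Klk1: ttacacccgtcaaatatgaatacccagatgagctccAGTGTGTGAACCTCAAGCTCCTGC
Klk1b4: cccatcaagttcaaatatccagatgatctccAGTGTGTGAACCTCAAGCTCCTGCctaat
V00829: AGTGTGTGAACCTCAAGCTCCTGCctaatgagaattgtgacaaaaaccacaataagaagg

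All 11 kallikreins measured, of 14 on the array, were lower in the mutant pool on both arrays, under loess, median centring and scanner processed signals alike, and 6 were called, not counting V00829, which was called but stands outside the list. The median was -1.12, for a list that was likewise chosen with earlier results of these data known. Klk1b11 was detected in the WT pool alone, so its lower value was built into the filter, and the other 10 were detected in both pools. Klk1b5 was the brightest, at 5614 and 5445 in the mutant pool against 15856 and 13788 in the WT pool, with log2 ratios of -1.44 and -1.35. Klk1 gave 1681 and 1490 against 3848 and 3449, with ratios of -1.09 and -1.21 by the probe shown and a mean of -0.74 by a second probe. Klk1b3 gave 1676 and 1575 against 4055 and 3805. Egfbp2, named for binding epidermal growth factor, gave 552 and 421 against 1327 and 1182. Klk1b4, Klk1b8 and the record V00829 had mean ratios of -1.19, -1.12 and -1.17. The 5 dimmer members had smaller ratios, from -0.85 for Klk1b27 to -0.28 for Klk1b21, on a scale that draws dim signals toward 0. In each called kallikrein the mutant signals lay below both WT signals, though the 2-fold rule itself required a gap on each array. Among the called kallikreins 2 probe pairs had 40 or more bases in common, Klk1 with Klk1b4 and Klk1b8 with V00829, and the probe of Klk1b5 shared at most 31 with any other. Binding of one member's transcript to another's probe was not tested, so values of single members are uncertain.

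The collecting duct, where kidney sets the final salt, water and acid content of urine, is lined by principal cells that take up water and sodium and by intercalated cells that move acid and base. The list of 20 genes was split by these known roles after the values were seen, and the split is a description. Of 10 principal cell genes 8 were higher and 1 lower in the mutant pool on both arrays, with a median of 0.44 and none called. Under median centring 6 were higher and 3 lower, and Scnn1b and Fxyd4 changed sign. Aqp2, the vasopressin-regulated water channel, gave 20292 and 18569 in the mutant pool against 14632 and 13029, with log2 ratios of 0.48 and 0.50. The vasopressin receptor Avpr2 had ratios of 0.67 and 0.54 and the transcription factor Gata3 ratios of 0.62 and 0.45. Scnn1g, a subunit of the epithelial sodium channel, had 0.46 and 0.40. The exception was Hsd11b2, which inactivates glucocorticoids in these cells, at -0.57 and -0.84.

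Of 10 intercalated cell genes 6 were lower on both arrays and 3 higher, with a median of -0.21, and 2 were called. Under median centring 8 were lower and none higher. Slc26a4, or pendrin, the chloride-bicarbonate exchanger of the base-secreting type, gave 3060.0 and 2662 in the mutant pool against 7300 and 6650.0. Rhbg, an ammonia transporter, gave 2467 and 2187 against 5534 and 4762, with log2 ratios of -1.21 and -1.03. Slc4a1, the anion exchanger of the acid-secreting type and of red cells, had ratios of -0.70 and -0.52, and the proton pump subunit Atp6v1g3 had -0.66 and -0.50. Other genes of the same cells were nearly equal in both pools. Foxi1, the transcription factor that specifies intercalated cells, gave 261 and 223 against 226 and 209, and the pump subunit Atp6v1b1 had ratios of 0.31 and 0.07. Rhcg, a second ammonia transporter, stood at 0.17, and at -0.08 under median centring.

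**Figure D3:**
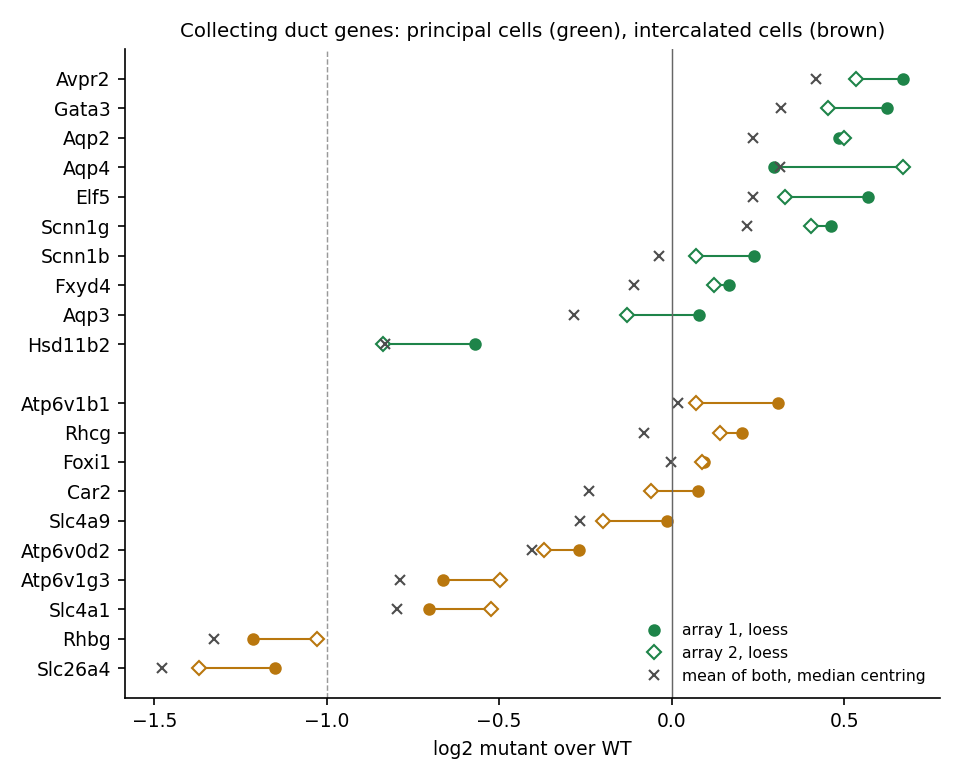
Log2 ratio of mutant over WT on array 1 (filled circles) and array 2 (open diamonds) for 10 principal cell genes (green) and 10 intercalated cell genes (brown), with the mean under median centring as crosses. Slc26a4 and Rhbg lie beyond the dashed 2-fold line on both arrays. Avpr2, Gata3 and Aqp2 are the highest by the loess mean of both arrays, and Aqp4 lies above them on array 2, at 0.67.

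Other nephron segments had medians close to that of all genes. Proximal tubule genes had a median of 0.01, with 11 higher and 10 lower on both arrays and none called. Slc13a1, a sulfate transporter of the proximal tubule, was the lowest of them at 1767 and 1725 against 3407 and 3138, with -0.89 on each array. Kap, an androgen-regulated kidney protein, had ratios of -0.66 and -0.51. Thick limb and distal tubule genes had a median of -0.05 and podocyte genes one of -0.00, with podocyte ratios between -0.26 and 0.21. Nphs1, which encodes nephrin of the slit diaphragm, gave 1404 and 1236 against 1229 and 1036. Nephron progenitor genes had a median of 0.08, and genes of polycystic kidney disease and nephronophthisis one of -0.01 over 25, none of them called. With median centring these lists moved below 0, with medians of -0.23 for the proximal tubule, -0.21 for the thick limb, -0.20 for podocytes, -0.05 for progenitors and -0.17 for the cystic disease genes. Nat8, an acetyltransferase, was called lower, with 1415 and 1253 against 3159 and 2879.

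Metabolic enzymes went in opposite directions. Of 9 carboxylesterases measured, enzymes that split esters of drugs and lipids, 7 were lower on both arrays, with a median of -0.50. Ces1g was called, at 118 and 114 against 382 and 343, and its second probe stood at -1.06. Ces2b gave 549.8 and 524 against 1198 and 1042, just short of the threshold on both arrays at -0.999 and -0.895. All 5 Gsta and Cyp4a genes measured, glutathione transferases and fatty acid hydroxylases, were higher on both arrays under each of these scalings, with a median of 0.52 under loess and 0.28 under median centring. Gsta1 gave 53786 and 44654 against 31495 and 29443, a log2 ratio of 0.68, and Cyp4a14 stood at 0.52. These families were picked out after their values were seen, so the split is a description.

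Among the 7 called higher genes, 5 could be matched to RefSeq. Sprr2f, which belongs to the proline-rich proteins of squamous epithelium, had the highest ratio, with 979 and 904 in the mutant pool against 184 and 172 in the WT pool, or 4.08-fold. Ahsg, the plasma protein fetuin-A, gave 452 and 411 against 97.6 and 84.8. Liver plasma protein genes went both ways, with 10 of 24 measured, Ahsg among them, higher on both arrays and 9 lower. Alb stood at 0.55, Ttr at -0.99 and the fetal protein Afp at -0.64, and the list of 24 measured genes had a median of -0.03. Crisp1, a secreted protein of the epididymis, gave 320 and 277 against 108 and 94.6. Other epididymal genes of the same list, Crisp4, Adam7, Lcn5, Lcn8 and Pate4, were not measured in either pool.

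Of 24 genes of keratins and epithelial surface proteins, 17 were higher and 4 lower on both arrays, with a median of 0.23, and 1 was called. With median centring 12 were higher and 8 lower. The simple epithelial keratins Krt8 and Krt18, which pair into filaments, were very bright. Krt18 gave 78405 and 64118 in the mutant pool against 40759 and 38912, with ratios of 0.89 and 0.78, and Krt8 gave 57767 and 50396 against 32076 and 32786. Krt7 stood at 0.47 and Krt19 at 0.38, and these 4 keratins kept a higher sign with median centring. Further genes named after their values were seen, and higher by 1.5-fold or more on both arrays, were the gasdermins Gsdmc, Gsdmc2 and Gsdmc3, the beta-defensins Defb19 and Defb29, and Ccn1 and Ankrd1. Another beta-defensin gene, Defb2, went the other way, with ratios of -0.99 and -0.65. Ccn1, a matrix protein, gave 4051 and 3524 against 2240 and 1949.

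Retinoid genes, which make and handle retinoic acid, had a median of 0.03 over 22 with 1 called, 10 higher and 8 lower on both arrays, or 7 and 9 with median centring. Aldh1a1, which oxidises retinaldehyde to retinoic acid, gave 2727 and 2474 against 1172 and 1039, with ratios of 1.13 and 1.22. With median centring its mean was 0.996 and it was no longer called. The retinol carrier Rbp4 had 0.87 and 0.75, the alcohol dehydrogenase Adh1 had 0.55 on both arrays, and Aldh1a3 and Aldh1a7 stood at 0.40 and 0.48. Cyp26a1, which breaks retinoic acid down, had ratios of -0.57 and -0.67.

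Fat genes had a median of -0.16 over 30, with 19 lower and 6 higher on both arrays and 2 called, both lower. Ucp1, the uncoupling protein of brown fat, gave 790 and 684 in the mutant pool against 1900.0 and 1643. Car3, a carbonic anhydrase of fat and muscle, gave 1015 and 916 against 2273 and 1922 by its brightest probe, while its other probe stood at -0.08. The lipid droplet genes Cidea, Plin1 and Cidec stood at -0.95, -0.90 and -0.81 and the adipokine Adipoq at -0.85. Other genes of the list were nearly equal in both pools or slightly higher in the mutant pool, with Pck1 at 0.19, Gpd1 at -0.05, Lpl at 0.12 and Otop1 at 0.24. With median centring 24 were lower and 1 higher, and Pck1 and Lpl changed sign. The signal of Ucp1 shows fat RNA in both pools, and the part of fat left on the tissue in these ratios was not tested.

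Stroma and blood cell lists held no called gene. Of 34 matrix genes 17 were lower and 7 higher on both arrays, with a median of -0.12. With median centring 26 were lower and 4 higher, with a median of -0.34. Lum and Dpt, proteins of loose connective tissue, stood at -0.86 and -0.74, and Col3a1, a fibrillar collagen, at -0.52, while Bgn and Fn1 stood at 0.35 and 0.31. Of 30 leukocyte genes 20 were lower and 3 higher, with a median of -0.14, or -0.21 with median centring. Cd74, the invariant chain of antigen presentation, had ratios of -0.69 and -0.68, and the monocyte marker Csf1r stood at 0.16, or -0.02 with median centring. The alpha-globin gene Hba-a1 had ratios of -0.76 and -0.23, so its arrays lay further apart than those of most genes. Of 32 cell division genes 15 were higher and 9 lower with a median of 0.05, and of 24 immediate early and heat shock genes 12 were higher and 7 lower with a median of 0.07. Both balances turned with median centring, to 5 higher and 20 lower for cell division and 3 higher and 13 lower for immediate early and heat shock genes.

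**Figure D4:**
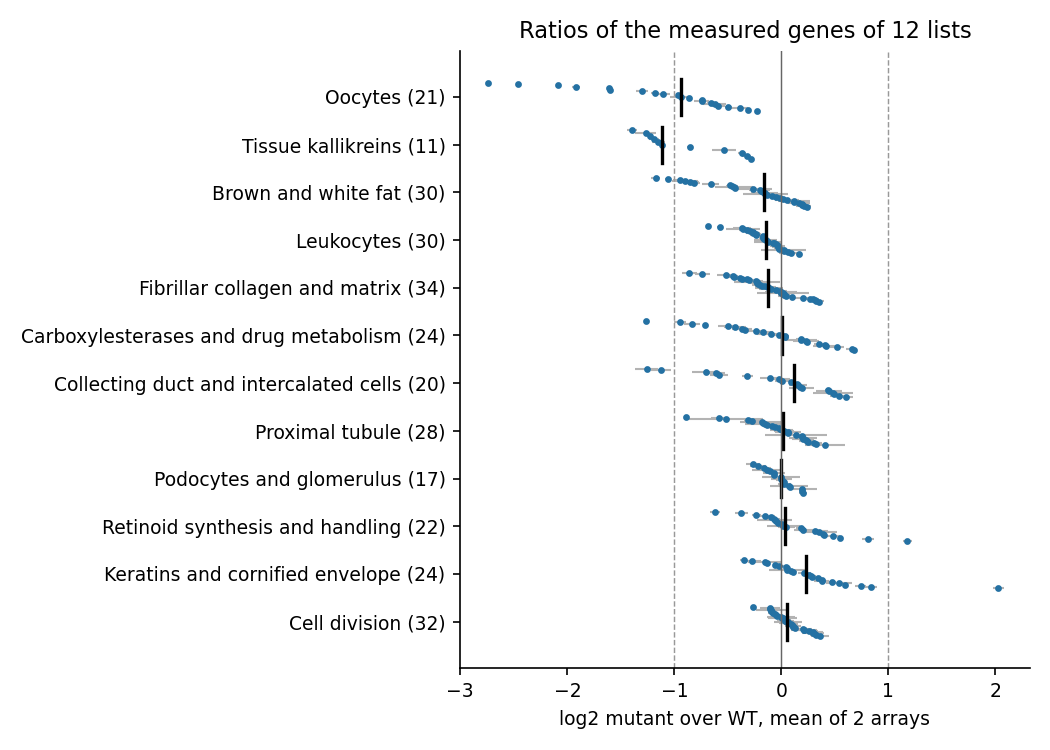
Log2 ratio of mutant over WT (mean of 2 arrays) for the measured genes of 12 lists. Each point is a gene, grey lines join its 2 arrays, black bars are medians, numbers in brackets count measured genes, and dashed lines mark 2-fold. Oocyte and kallikrein genes lie wholly below 0, with medians of -0.94 and -1.12, and each of the other 10 lists spans 0.

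The dye swap also showed where the arrays could not be trusted singly. Among 89 genes with a signal of 100000 or more in the dimmer pool, the median ratio was -0.36 on array 1 and 0.37 on array 2, and 95.5% of them were lower on array 1 and higher on array 2. In both cases the pool in Cy5 read higher. For 187 genes between 50000 and 100000 the medians were -0.13 and 0.10, and below 50000 they lay between -0.03 and 0.02 on each array. The mean of both arrays was -0.00 for the brightest genes. Of the 6 genes whose arrays opposed each other most, 5 encode ribosomal proteins. Rpl7a gave 151405 and 237085 in the mutant pool on arrays 1 and 2 and 227055 and 179126 in the WT pool, with ratios of -0.87 and 0.72. Pigt, a subunit of the enzyme that attaches GPI anchors, had -0.674 and 1.601. Lars2, a mitochondrial leucyl-tRNA synthetase, had 0.34 and 1.99 and was not called. None of the 40 called genes had a signal of 50000 or more in the dimmer pool.

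**Figure D5:**
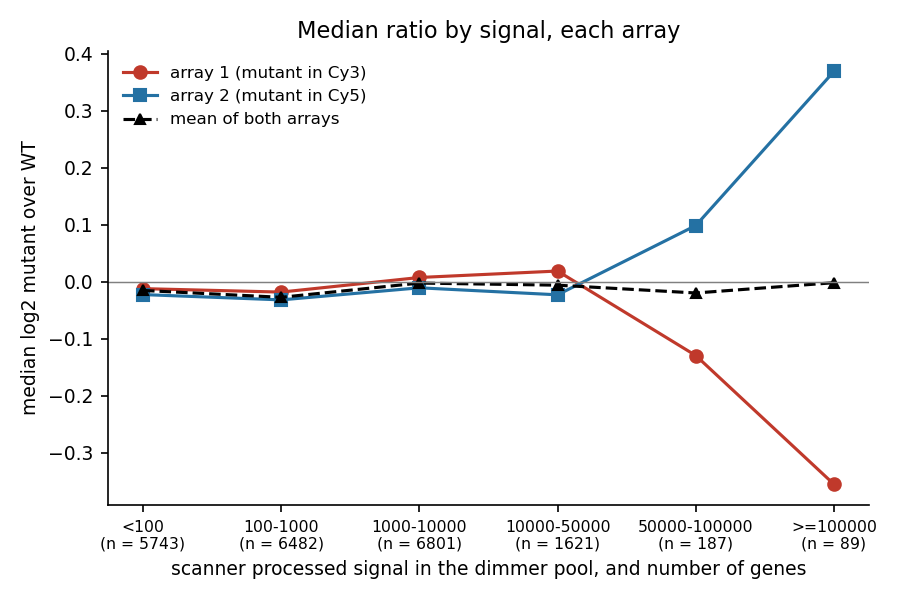
Median log2 ratio of mutant over WT by signal in the dimmer pool, on array 1 (red), on array 2 (blue) and for their mean (black). The arrays part above a signal of 50000 and reach -0.36 and 0.37 in the 89 brightest genes, where the mean stays near 0.

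Probes of one called gene did not always give like ratios. The second probe of 1700006H03Rik stood at -1.69, in the same direction. B830017H08Rik stood at -1.70 by its brightest probe and 0.05 by another, and Car3 at -1.06 and -0.08. Abcb1b, a drug efflux pump, stood at -1.06 with others at -0.03 and -0.31, of which only 1 passed the filter on dim probes. Abcb1b, B830017H08Rik, Car3 and Klk1 were no longer called when all measured probes of a gene were averaged, nor were these 4 and Ces1g when every measured probe had to pass. Of the 40 called genes, 12 had no RefSeq symbol, 10 lower and 2 higher. One of them, 5430405N12Rik, gave 582 and 477 in the mutant pool against 2799 and 2511. The threshold itself divided close neighbours. Abcb1b and Rhbg lay just inside, with -1.01 and -1.03 on their weaker array, and Rpp14, a subunit of RNase P, and Ttr just outside, with -0.99 and -0.96.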

How the data were processed

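RNA of 2 pools (2 pups each), 500 ng per labelling by linear amplification per the labels' protocols, was hybridised to both arrays with the dyes exchanged. The authors deposited scanner files, whose mean spot and background intensity is unnormalised and whose processed signal is background-subtracted and dye-normalised per the file headers. The scanner's own ratio is log10 of Cy5 over Cy3, per the file headers. The deposited value table matched the log2 ratio of mutant over WT of the scanner signals. Agilent Feature Extraction 8.1 is given in the submitters' processing notes, and the file headers give 9.1.3.1.

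Mean intensities were corrected with normexp (offset 50) and loess (controls at weight 0) in limma 3.58.1 under R 4.3.3. Outlier spots were dropped and spots of a probe averaged, and no spot was saturated. For ratios a gene took its brightest probe among those well above background in at least 1 pool on both arrays. Called genes differed at least 2-fold, with 1 sign, on each array. "At least" folds set the WT mean against the higher of the mutant's own level and the lowest level well above background. The steps were tested on simulated data. The genes and 41 lists were chosen with earlier results of these data known. Named were Glis3, the called genes, up to 6 members of a list with the largest ratios and up to 4 brightest, the 15 brightest genes, 6 discordant genes and 10 just outside the threshold. Others named here were chosen after their values were seen. Symbols were matched to RefSeq for 22951 of 41174 probes. With 1 pool per genotype no test was made, and precision is limited by the number of arrays.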

Additional observations from a re-analysis of the deposited data

How the results depend on the processing

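No called gene changed direction under the alternatives run. The count of 40 called genes became 175 (22 higher, 153 lower) with the scanner's processed signals and 74 with a normexp offset of 10. All 40 were among those called both times. The deposited value table also gave 175, but it holds the same scanner ratios and is no separate check. A 1.5-fold threshold gave 184, which include the 40 by definition. Median centring gave 52, sharing 39, with a median of all genes of -0.11. Averaging all measured probes of a gene lost 4 of the 40 calls (Abcb1b, B830017H08Rik, Car3 and Klk1), and requiring every probe to pass lost 5 (also Ces1g). On 1 array alone, 48 to 59 genes were called. Of 40 lists with 5 or more genes measured, 3 (oocytes, kallikreins and heart) had 75% or more of their genes lower on both arrays. Median centring gave 6 such lists and single arrays 4 to 8. Heart was not among the 6, nor with processed signals, the value table, no background correction or no filter, which left 2. The kidney median signal of 3770.4 became 3233 with background-subtracted mean signals and 2754 with the dimmest probe of each gene, and that of all genes went from 130.9 to 113.5 and 48.1. For each of these shifts the cause was not tested. No paired analysis was possible because each genotype had 1 pool. Signals near background limit the folds of dim genes.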
